A study of Mus musculus with 9 samples.

Results

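The FGF receptors and ligands followed here are 10 genes, chosen by name: the 4 signaling receptors Fgfr1, Fgfr2, Fgfr3 and Fgfr4, the receptor-like Fgfrl1, the ligands Fgf1, Fgf2 and Fgf7, the ligand homolog Fgf13, whose protein stays in the cell, and the carrier protein gene Fgfbp1. All 10 were found among the 47643 genes of the count files, and 8 of them, all but Fgf7 and Fgf13, had the sum of at least 100 counts over all libraries that was asked of a tested gene. RNA was sequenced from tumor cells of mice with pancreatic ductal adenocarcinoma (PDAC), sorted by color: 6 libraries hold GFP+Yap+ cells (KPF mice) and 3 hold Tm+Yap- cells (KPYYF mice). Among the alleles that both genotypes shared were Trp53 frt/+, Pdx-Flp, which drives Flp recombinase in the pancreas, and R26 FSF-CreER/Dual, which holds the tamoxifen-inducible Cre and a reporter that changes from GFP to tdTomato (Tm). KPYYF mice had Yap flox/flox in addition. Tamoxifen in the diet was given to mice of both genotypes once tumors could be felt, and the Tm+Yap- cells came from nodules that grew back, so that Yap status, genotype, reporter color and relapse differ together between the groups. Libraries are named by mouse number, and KPF 4504h and KPF 4504s share one. No source says how this pair was split, so p-values measure the spread between these libraries, which for that pair may be within 1 mouse.

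Fibroblast growth factors bind receptor tyrosine kinases together with heparan sulfate on the cell surface, and the activated receptor signals through the adaptor Frs2 to the MAP kinase cascade. Epithelial cells mostly use Fgfr2 with a splice form that binds ligands made by neighboring mesenchyme, such as Fgf7 and Fgf10, and mesenchymal cells mostly use Fgfr1. In the developing pancreas, Fgf10 from the mesenchyme acts on Fgfr2 of the epithelial progenitors.

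Between 8116539 and 9635514 reads per library were counted on genes, and 3 counts correspond to 0.292 to 0.437 CPM, the unit of counts at a common library size. Levels are given as CPM, with library sizes scaled by the TMM method, and the libraries are 3' end libraries, in which a transcript gives reads near its end whatever its length. Yap1, the deleted gene, was at 41.8 to 151 CPM in KPF and at 0.712 to 7.12 CPM in KPYYF libraries. The adjusted p of this difference was 0.0159 (log2 fold change -4.79, standard error 0.72), and 0.0553 without KPYYF 4891. Reads lie at the end of the transcript, and which exons Cre removes is not given in the sources used here, so this value alone does not check the deletion. Of 8 epithelial markers, all 8 had negative log2 fold changes and 2, Cdh1 and Krt18, an adjusted p under 0.05. Their summed level ranged from 3206 to 11071 CPM in KPF and from 560 to 1850 CPM in KPYYF libraries, highest among the latter in KPYYF 4449. No epithelial marker was at 0 in the KPYYF libraries. The summed level of 14 fibroblast markers was 441 to 5727 CPM in KPF and 1167 to 3151 CPM in KPYYF libraries, with 6 positive and 8 negative log2 fold changes and none with an adjusted p under 0.05. That of 10 immune markers was 415 to 7920 and 400 to 702 CPM, with KPF 4601 far above the others, and all 8 tested had negative log2 fold changes, none with an adjusted p under 0.05. The sums of endothelial, acinar and islet markers also overlapped between the groups. For the endothelial markers this was through KPF 4269 alone, at 10.8 CPM. The other KPF libraries were at 34.2 to 66.4 CPM and the KPYYF libraries at 10.4 to 14.8 CPM. Of the tested endothelial markers 1 had a positive and 4 a negative log2 fold change, of the acinar 1 and 4, and of the islet 1 and 5. The endothelial Kdr (log2 fold change -3.40) and Vwf (-6.05) and the islet Ins1 (-5.04) and Gcg (-5.42) were lower in KPYYF libraries. Ins1 and Gcg were low in KPF libraries too, with means of 2.93 and 2.16 CPM. The unadjusted p of Kdr, Vwf, Ins1 and Gcg was under 0.05 in edgeR's quasi-likelihood test, and none had an adjusted p under 0.05. The 5 Schwann cell markers had sums of 18.1 to 97.0 CPM in KPF and 0.547 to 7.36 CPM in KPYYF libraries, with Sox10 and Gfra3 at 0 in every library. How far a change in the makeup of the sorted cells entered the values below was not tested, and in RNA of many cells, fewer cells with a transcript and less of it per cell cannot be told apart.

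Among the signaling receptors, Fgfr1 was higher and Fgfr2 lower in Tm+Yap- cells, and both passed the adjustment over all genes. Fgfr1 (ENSMUSG00000031565, chr8:25518759-25575718, plus strand, GRCm38) encodes the receptor typical of mesenchymal cells. In the KPF libraries 4269, 4435, 4504h, 4504s, 4515 and 4601 it was at 19.5, 44.1, 62.3, 60.8, 24.8 and 26.8 CPM. In the KPYYF libraries 4449, 4891 and 4938 it was at 82.8, 494 and 188 CPM. The lowest KPYYF library thus lay above the highest KPF library, and KPYYF 4891 stood far above both others. The means were 39.7 ± 18.8 CPM (SD, n = 6) and 255 ± 214 CPM (SD, n = 3), a 6.41-fold difference (log2 fold change 2.68, standard error 0.51, adjusted p = 0.0351 in edgeR's quasi-likelihood test). Fgfr1 had a log2 fold change of 1.77 and an adjusted p of 0.141 without KPYYF 4891. The adjusted p was below 0.05 without KPF 4504h or KPYYF 4449 and between 0.0519 and 0.0740 without KPF 4269, 4435, 4504s, 4515 or 4601 or KPYYF 4938. Over all 17 alternatives it ran from 5.97e-05 to 0.201, and every alternative gave a higher level in KPYYF cells.

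The summed level of the fibroblast markers was 441, 2131, 4093, 5727, 2418 and 631 CPM in KPF 4269, 4435, 4504h, 4504s, 4515 and 4601, and 1461, 3151 and 1167 CPM in KPYYF 4449, 4891 and 4938. KPF 4504h and 4504s had the highest sums and the most Fgfr1 of their group, while KPF 4515 had a sum like that of KPF 4435 and less Fgfr1, 24.8 against 44.1 CPM. The part of fibroblasts in the level of Fgfr1 was not tested. Pdgfra, a receptor of fibroblasts and other mesenchymal cells that belongs to the fibroblast list, was at 4.38 to 42.0 CPM in KPF and at 24.3, 285 and 116 CPM in KPYYF 4449, 4891 and 4938. Its log2 fold change came to 2.90 (standard error 0.77, adjusted p = 0.105). Of the 14 fibroblast markers, 4 met the rule of an unadjusted p under 0.05 and more than 2-fold, Pdgfra and Dpt (2.04) higher, and Acta2 (-2.65) and Rgs5 (-2.52) lower, the last a gene of pericytes. The other 10 ran from -1.71 for Col1a2 to 1.59 for Lum.

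Fgfr2 (ENSMUSG00000030849, chr7:130162451-130266808, minus strand, GRCm38) encodes the receptor of epithelial cells for mesenchymal ligands. It was at 13.0, 7.68, 4.60, 13.1, 16.5 and 3.21 CPM in KPF 4269, 4435, 4504h, 4504s, 4515 and 4601, from 22 to 149 counts. KPYYF 4449 had no count of Fgfr2, and KPYYF 4891 and KPYYF 4938 had 1 count each. All 6 KPF libraries were well above the 3-count limit, and all 3 KPYYF libraries were below it. The KPF mean was 9.69 ± 5.31 CPM (SD, n = 6), and the depth-scaled ratio of the summed counts, 540 in KPF and 2 in KPYYF libraries, was 132 (95% counting interval 36.4 to 1094, from the exact binomial method). Intervals of this kind cover counting error only. The fitted log2 fold change, whose size depends on the prior count at such low values, was -6.79 (standard error 1.29, adjusted p = 0.0292). Fgfr2 kept an adjusted p under 0.05 without KPF 4269, 4504h or 4601 or KPYYF 4449, and had 0.0585 to 0.0877 without KPF 4435, 4504s or 4515 or KPYYF 4891 or 4938. Over the 17 alternatives the adjusted p ran from 1.00e-05 to 0.173. In GENCODE, a long transcript of Fgfr2 shares 210 exon bases with Ctbp2 on the same strand.

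Fgfr4 and Fgfr3, the other signaling receptors, had negative log2 fold changes that did not pass the adjustment. Fgfr4 (ENSMUSG00000005320, chr13:55152818-55168759, plus strand) encodes a receptor best known as the partner of beta-Klotho in the liver. It was at 7.20, 9.94, 5.31, 8.77, 13.7 and 4.52 CPM in KPF 4269, 4435, 4504h, 4504s, 4515 and 4601, and at 2.37, 0 and 0 CPM in KPYYF 4449, 4891 and 4938. The groups did not overlap, and the 20 counts of KPYYF 4449 were all of the Fgfr4 counts of that group. KPYYF 4449 was also the library of its group with the highest epithelial marker sum, 1850 CPM against 560 and 666 CPM. Its acinar marker sum was the highest as well, 5205 CPM against 83.0 and 70.0 CPM, while Fgfr2 had no count there. The source of its Fgfr4 counts was not tested. The log2 fold change came to -3.37 (standard error 1.46, unadjusted p = 0.0385, adjusted p = 0.273 in edgeR's quasi-likelihood test). Without KPYYF 4449, where the remaining 2 KPYYF libraries had no count, the adjusted p was 0.0237. The unadjusted p was above 0.05, at most 0.0778, without KPF 4435, 4504s or 4515 or KPYYF 4891 or 4938 in edgeR's quasi-likelihood test. Over the 17 alternatives the adjusted p ran from 0.0237 to 0.528.

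Fgfr3 (ENSMUSG00000054252, chr5:33721724-33737068, plus strand) is known for its role in restraining bone growth. It had 1, 18, 2, 82, 100 and 27 counts in KPF 4269, 4435, 4504h, 4504s, 4515 and 4601, or 0.0973 to 11.1 CPM, and 2, 9 and 0 counts in KPYYF 4449, 4891 and 4938. The groups overlapped, since KPF 4269 and KPF 4504h were as low as the KPYYF libraries. The log2 fold change came to -3.39 (standard error 1.87, adjusted p = 0.402). KPF 4504h and KPF 4504s, with the same mouse number, were at 0.204 and 9.34 CPM.

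The promoters of Fgfr2 and Fgfr4 are shown because these receptors were both without overlap and lower in Tm+Yap- cells. The windows are RefSeq sequence of GRCm38.p6, written along the gene from 250 bases before to 50 bases after the start, chr7:130266759-130267058 on the minus strand for Fgfr2 and chr13:55152568-55152867 on the plus strand for Fgfr4. Capitals mark a match to a searched motif.
Fgfr2 promoter: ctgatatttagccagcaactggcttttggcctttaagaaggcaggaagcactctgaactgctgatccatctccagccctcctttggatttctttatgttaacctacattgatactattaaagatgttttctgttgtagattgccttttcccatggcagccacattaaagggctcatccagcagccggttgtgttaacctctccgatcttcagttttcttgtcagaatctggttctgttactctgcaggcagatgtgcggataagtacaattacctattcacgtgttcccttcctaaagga
Fgfr4 promoter: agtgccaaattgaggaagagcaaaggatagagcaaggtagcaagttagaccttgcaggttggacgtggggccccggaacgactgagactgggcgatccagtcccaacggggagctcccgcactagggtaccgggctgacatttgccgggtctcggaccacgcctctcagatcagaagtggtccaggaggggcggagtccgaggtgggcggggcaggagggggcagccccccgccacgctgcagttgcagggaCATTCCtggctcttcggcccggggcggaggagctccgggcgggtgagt
Both strands were searched for GGAATG, the core of the site for TEAD factors through which Yap acts on DNA, TGANTCA for AP-1, CAGGTG for E-box repressors and TGTTTAC for FOXA factors. The Fgfr2 window held none of these. The Fgfr4 window held GGAATG once, on the minus strand at bases 2 to 7 counted from the start, where the printed strand reads CATTCC. Of 32851 such windows in the RefSeq table, 14.7% held GGAATG, 7.81% TGANTCA, 20.2% CAGGTG and 3.65% TGTTTAC. The Fgfr2 window was 43.7% G or C with 4 CG pairs and the Fgfr4 window 65.3% with 20, where the medians of all windows were 52.7% and 7. Of the 12 windows found for 8 of the 10 genes, the only other match was TGANTCA in 1 of 4 windows of Fgf13. A match of letters describes the sequence and does not show that a factor binds there.

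As a share of the reads on the 4 signaling receptors, Fgfr1 took 37.5 to 86.0% in KPF libraries, with a median of 67.7%, and 96.9, 99.8 and 99.9% in KPYYF 4449, 4891 and 4938. The exact binomial 95% intervals were 83.3 to 88.5% for KPF 4504h, the highest KPF library, and 95.4 to 98.1% for KPYYF 4449, the lowest KPYYF library. Nearly all receptor reads of Tm+Yap- cells were therefore on Fgfr1. The share of Fgfr2 was 6.35 to 32.8% in KPF libraries. In KPYYF 4449 it was 0 of 719 reads, where the exact binomial 95% interval reaches 0.512%, and in KPYYF 4891 and 4938 it was 0.0221% and 0.0584%. Fgfr4 took 7.33 to 20.8% in KPF and 2.78% in KPYYF 4449. In KPYYF 4891 and 4938 it had 0 reads of 4531 and 1712, with intervals of the same kind up to 0.0814% and 0.215%. Shares of reads move together by construction and are given without a test, and reads from transcript ends do not tell the splice forms of a receptor apart.

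**Figure D1:**
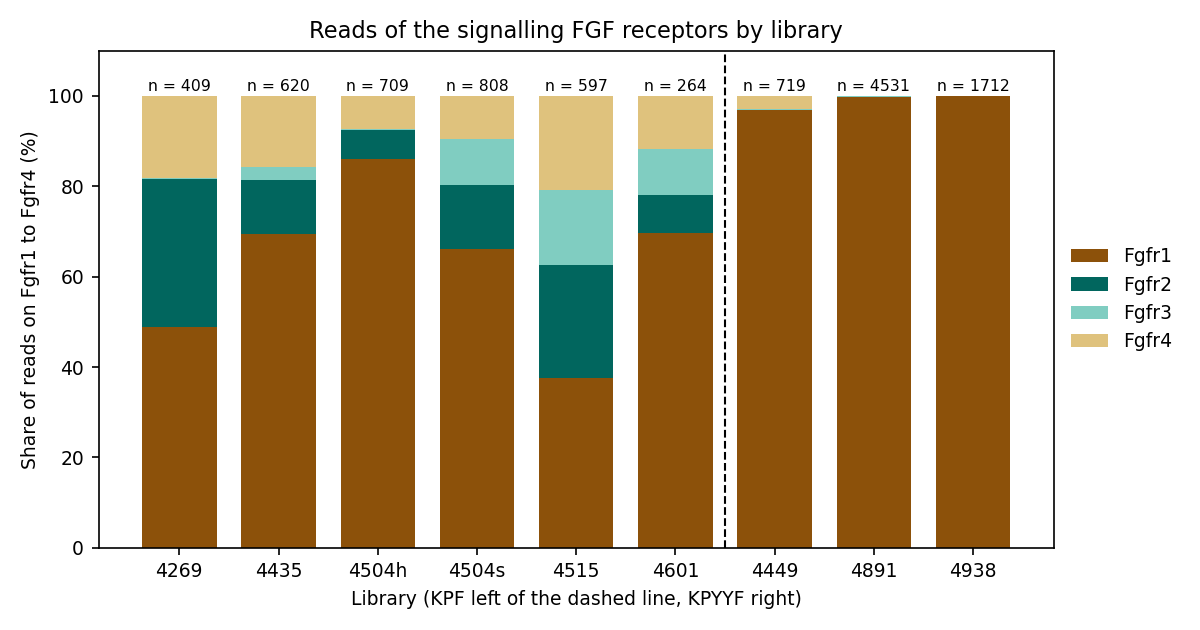
Stacked bars give the share (%) of reads on Fgfr1, Fgfr2, Fgfr3 and Fgfr4 in each of the 9 libraries, KPF left and KPYYF right of the dashed line, with the number of reads above each bar. Fgfr1 fills 96.9% or more of each KPYYF bar and 37.5 to 86.0% of the KPF bars.

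Fgfrl1 (ENSMUSG00000008090, chr5:108694229-108706950, plus strand) encodes a receptor-like protein that binds ligands but lacks the kinase domain. It was at 28.3, 55.9, 32.5, 49.0, 51.7 and 30.0 CPM in KPF 4269, 4435, 4504h, 4504s, 4515 and 4601, and at 27.1, 68.8 and 64.7 CPM in KPYYF 4449, 4891 and 4938. KPYYF 4449 was the lowest of all 9 libraries and the other KPYYF libraries were the highest. The log2 fold change came to 0.38 (standard error 0.38, 95% confidence interval -0.45 to 1.20, adjusted p = 0.697).

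Of the ligands, Fgf1 was lower in Tm+Yap- cells without overlap, at an adjusted p of 0.0531 just above the threshold, and Fgf2 overlapped. Fgf1 (ENSMUSG00000036585, chromosome 18) encodes a growth factor without a signal peptide that can bind all the signaling receptors. It was at 4.77, 12.1, 20.3, 26.2, 20.4 and 4.96 CPM in KPF 4269, 4435, 4504h, 4504s, 4515 and 4601, and at 0.119, 0.109 and 1.21 CPM in KPYYF 4449, 4891 and 4938. The KPYYF values came from 1, 1 and 11 counts, so that only KPYYF 4938 was above the 3-count limit. The log2 fold change came to -4.91 (standard error 1.11, unadjusted p = 6.74e-04 in edgeR's quasi-likelihood test). Over the 17 alternatives the adjusted p ran from 1.49e-05 with DESeq2 to 0.198 with limma-voom and was below 0.05 in 3, among them the fit without KPF 4601, where it was 0.0485.

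Fgf2 (ENSMUSG00000037225, chr3:37348477-37410106, plus strand), which also lacks a signal peptide and is a well-known ligand of Fgfr1, was at 1.65, 26.2, 10.02, 10.1, 8.85 and 4.52 CPM in KPF 4269, 4435, 4504h, 4504s, 4515 and 4601. In KPYYF 4449, 4891 and 4938 it was at 14.5, 4.70 and 19.1 CPM. The groups overlapped over most of their range, and KPYYF 4891, the library with the most Fgfr1, had the least Fgf2 of its group. The log2 fold change came to 0.32 (standard error 0.78, 95% confidence interval -1.36 to 1.99, adjusted p = 0.895), and its sign was negative without KPYYF 4938. The gene shares up to 585 exon bases with Nudt6 on the opposite strand, which had 480 counts in all, and the strand setting of the counting is not given in the sources used here, so the value of Fgf2 is uncertain.

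The remaining ligand genes and the carrier were near the detection limit in most libraries. Fgf7 (ENSMUSG00000027208, chr2:126034658-126091185, plus strand), the keratinocyte growth factor, had 0, 31, 0, 8, 4 and 4 counts in KPF 4269, 4435, 4504h, 4504s, 4515 and 4601, and 0, 32 and 3 counts in KPYYF 4449, 4891 and 4938. Most of its 82 counts thus came from 1 library of each group. Fgf13 (ENSMUSG00000031137, chrX:59062139-59585572, minus strand), which encodes a protein that stays in the cell and binds sodium channels, had 24, 0, 0, 18, 7 and 12 counts in the KPF libraries in the same order. The KPYYF libraries had 0, 1 and 0 counts of Fgf13, and the depth-scaled ratio of KPF over KPYYF was 29.9 (95% counting interval 5.16 to 1199). The 62 counts of Fgf13 lay under the filter, and without any filter its unadjusted p was 0.117 in edgeR's quasi-likelihood test.

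Fgfbp1 (ENSMUSG00000048373, chr5:43978858-43981828, minus strand) encodes a secreted protein that frees growth factors from the matrix. It had 0, 29, 0, 0, 74 and 7 counts in KPF 4269, 4435, 4504h, 4504s, 4515 and 4601, and 1, 0 and 0 counts in KPYYF 4449, 4891 and 4938. Only 3 of the KPF libraries were above the KPYYF libraries, and KPF 4515 held most of the counts. The ratio of summed counts was 53.9 (95% counting interval 9.47 to 2146), and the log2 fold change came to -5.29 (standard error 2.74, adjusted p = 0.369).

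**Figure D2:**
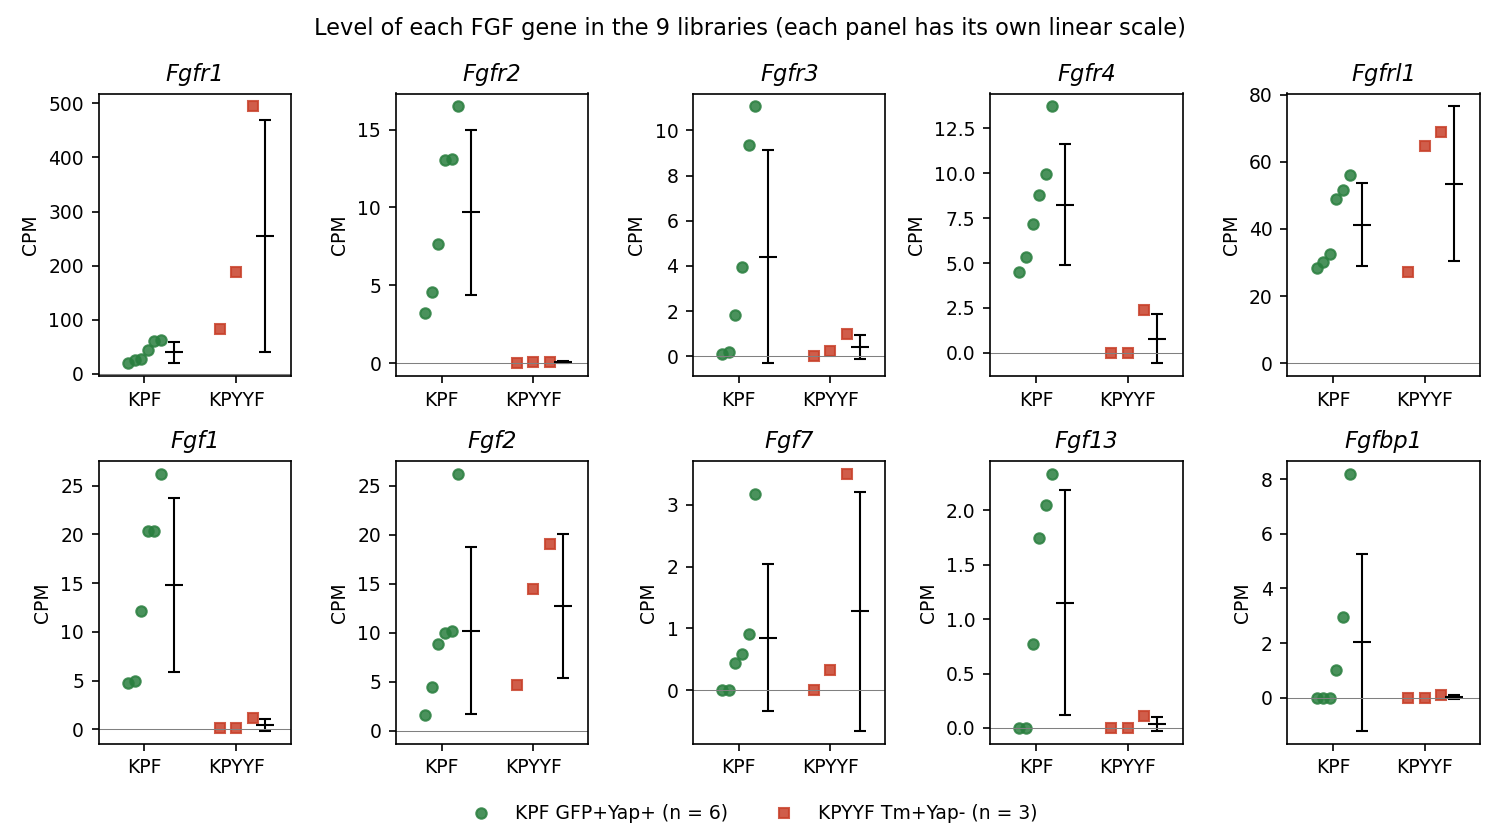
Each panel plots the level (CPM, linear axis of its own) of 1 gene in the 6 KPF libraries (green circles) and the 3 KPYYF libraries (red squares), with the mean and SD of each group as a bar beside the points. Fgfr1 lies higher in all KPYYF libraries, with 82.8 CPM as the lowest, and Fgfr2, Fgfr4 and Fgf1 lie lower, while the other 6 genes overlap.

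Over the 8 tested genes, 2 had an adjusted p under 0.05, 1 higher and 1 lower in KPYYF cells, where 1.1% of the 14105 genes tested did (0.305% higher and 0.794% lower). By the rule of the study's methods, which asks for an unadjusted p below 0.05 and for more than 2-fold, 1 was higher (Fgfr1) and 3 were lower (Fgfr2, Fgfr4 and Fgf1), against 4.2% and 9.2% of all genes tested. With DESeq2, the tool of the study's methods, 6 met it, with Fgfr3 (unadjusted p = 0.0252) and Fgfbp1 (unadjusted p = 0.0364) in addition, both lower. How many of all genes tested met the rule with DESeq2 was not counted. The 4 genes that met it with edgeR had no overlap between the groups, against 9.1% of all genes tested (3.92% higher and 5.18% lower). Their 2-sided exact permutation p of log2 CPM was 0.0119 each, the smallest that the 84 splits into 6 and 3 allow, and that of the other 6 genes was 0.155 to 0.940. The value of 0.0119 rests on the same separation as the lack of overlap and is no second line of evidence. The median log2 fold change of the 8 genes was -3.38, with 3 positive and 5 negative, and that of all genes tested was -0.07. The 5 negative genes passed the filter on summed counts through the KPF libraries. These held 540 of 542 counts of Fgfr2, 814 of 827 of Fgf1, 230 of 241 of Fgfr3, 455 of 475 of Fgfr4 and 110 of 111 of Fgfbp1. This median therefore describes these genes and is no test of the family. The number with an adjusted p under 0.05 was 0 without KPF 4435, 4504s or 4515 or KPYYF 4891 or 4938, 1 without KPF 4269 and 3 without KPYYF 4449. With the 3 KPF libraries that had at least 1000 reads of Xist, which is made from the inactive X, as all KPYYF libraries did, it was 0 as well. These KPF libraries were 4435, 4504h and 4504s, and the last 2 share a mouse number. KPF 4269, 4515 and 4601 had 79, 71 and 159 reads of Xist, and the KPYYF libraries 3452 to 16108. Xist thus also differed in part between the groups.

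**Figure D3:**
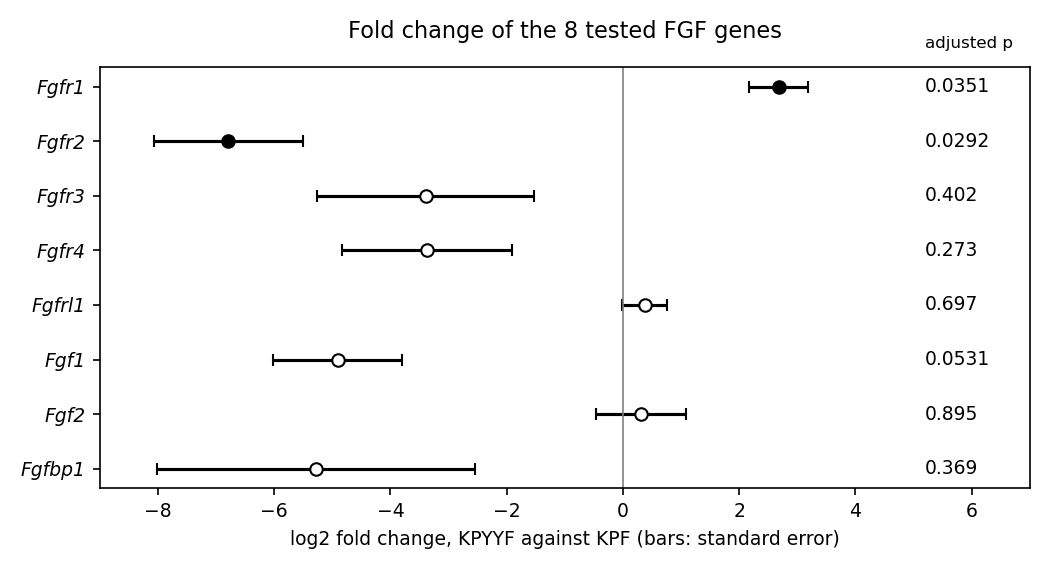
Points give the log2 fold change of KPYYF against KPF cells for the 8 tested genes with the standard error as bars, filled where the adjusted p, printed at the right, is under 0.05. Fgfr1 at 2.68 and Fgfr2 at -6.79 are filled, and the widest bar is that of Fgfbp1.

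**Figure D4:**
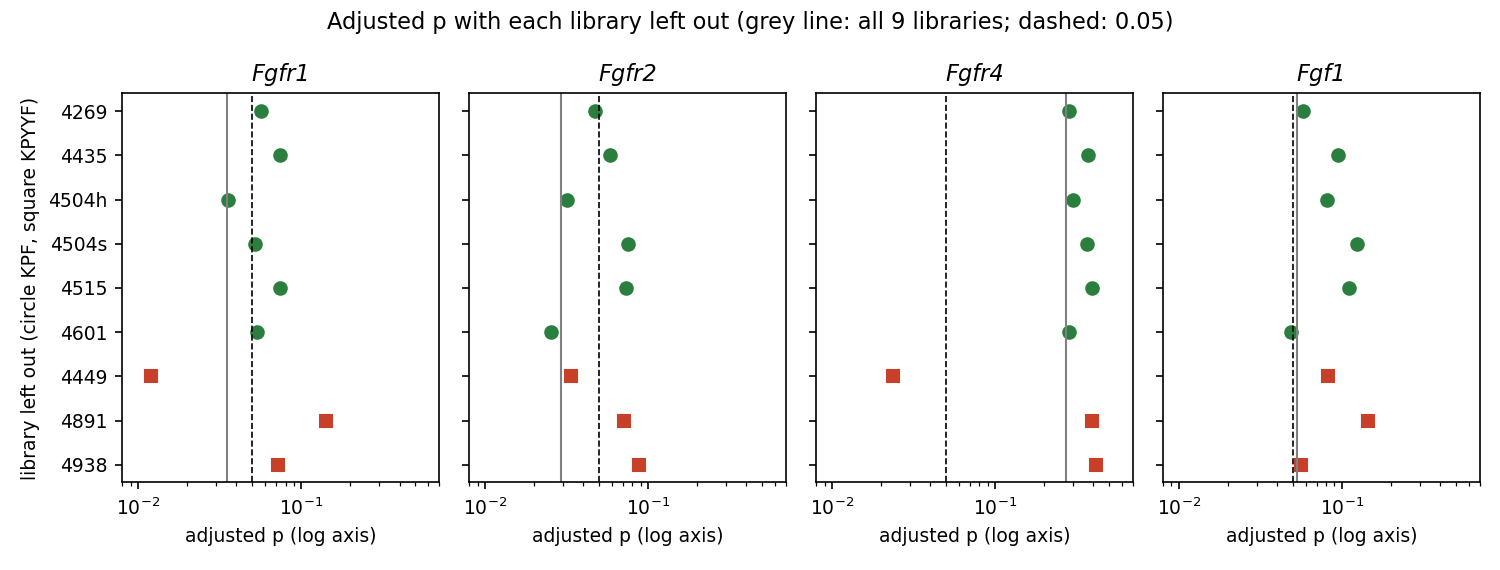
Each panel gives the adjusted p (log axis) of 1 gene when the library named on the vertical axis is left out, with circles for KPF and squares for KPYYF libraries, a grey line for all 9 libraries and a dashed line at 0.05. Fgfr1 reaches 0.141 without KPYYF 4891, and Fgfr4 falls to 0.0237 without KPYYF 4449.

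In all, 6 lists held 70 other genes of the pathway, of which 69 were in the files and 52 were tested. None had an adjusted p under 0.05 in edgeR's quasi-likelihood test, and 6 had a positive and 4 a negative log2 fold change at an unadjusted p under 0.05. DESeq2 gave 4 genes with an adjusted p under 0.05, where it called 269 of all genes tested higher and 928 lower. Without KPYYF 4449, edgeR gave 5, and the calls among all genes with each library left out are given as ranges at the end. By the rule of the methods, 4 were higher and 3 were lower. These were 7 of the 52 tested, where 13.4% of the 14105 genes tested met the rule (4.2% higher and 9.2% lower). Groups without overlap, named for some genes below, were found for 3.92% of all genes tested on the higher and 5.18% on the lower side.

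Among 19 other growth factor and carrier genes, 6 had no count and 5 were tested, with a median log2 fold change of 1.62. KPYYF libraries held 373 of 394 counts of Fgf10, and KPF libraries 195 of 213 of Fgf11. Such genes passed the filter through the group where they were high, so this median is no test of the list. Fgf10, the mesenchymal ligand of Fgfr2 in pancreas development, met the rule of the methods with edgeR. It had 0, 0, 0, 15, 6 and 0 counts in KPF 4269, 4435, 4504h, 4504s, 4515 and 4601, and 0, 125 and 248 counts in KPYYF 4449, 4891 and 4938. It was thus high in 2 of 3 KPYYF libraries, those with the lower epithelial and acinar marker sums, and had no count in the third. The lowest value of the list was that of Fgf11, -2.39 (adjusted p = 0.598). Fgf10 itself came to 5.06 on this scale (standard error 1.79, adjusted p = 0.178). Without KPYYF 4938 its unadjusted p was 0.0814 in edgeR's quasi-likelihood test, among libraries with at least 1000 Xist reads it was 0.0735, and with DESeq2 it was 0.0830. In KPYYF 4891 and 4938, Fgf10 was at 13.7 and 27.2 CPM while Fgfr2 was at 0.109 and 0.110 CPM.

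Of 7 receptor partners, which include the Klotho co-receptors and adhesion proteins that bind FGF receptors, 5 were tested and none met the rule. Their median log2 fold change was 0.33, from -1.12 for Flrt3 to 2.44 for Flrt1, both of which encode receptor-binding proteins with leucine-rich repeats (adjusted p = 0.470 and 0.575). All 11 heparan sulfate enzymes were tested, with a median of -0.46. Sulf1, which removes sulfate groups from heparan sulfate outside the cell, was at 6.27 to 71.5 CPM in KPF and at 0.712, 0.547 and 6.14 CPM in KPYYF 4449, 4891 and 4938. The groups of Sulf1 did not overlap, though KPF 4601 and KPYYF 4938 were almost level, and the log2 fold change came to -3.78 (standard error 1.09, adjusted p = 0.121). Hs6st2, which adds sulfate groups, was at log2 fold change -1.94 (standard error 0.67 and adjusted p = 0.169), and Hpse, the heparanase, had the highest of the list, 1.34 (adjusted p = 0.512).

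The 11 signal relay genes, among them the adaptors Frs2 and Grb2, had a median of 0.07 over 10 tested, and none met the rule. Sos1, an exchange factor that binds Grb2, had the highest value, 0.90 (adjusted p = 0.204), and Crkl, an adaptor, the lowest, -2.20 (adjusted p = 0.652). Of 16 feedback and target genes of the pathway, 15 were tested, 13 with positive and 2 with negative log2 fold changes and a median of 0.47. The median of all genes tested was -0.07. Of the 15 feedback and target genes, 3 met the rule of the methods, all higher, where 4.2% of all genes tested were higher by it. Spry2, which encodes a Sprouty inhibitor of receptor signaling, was at 11.3 to 40.4 CPM in KPF and at 89.1, 66.8 and 49.6 CPM in KPYYF 4449, 4891 and 4938. Etv1, a transcription factor of the ETS family, was at 3.21 to 19.6 CPM in KPF and at 38.4, 25.5 and 57.9 CPM in these KPYYF libraries. Neither gene overlapped between the groups, and the log2 fold changes were 1.19 for Spry2 (standard error 0.40, adjusted p = 0.165) and 1.69 for Etv1 (standard error 0.55, adjusted p = 0.155). Spred1, an inhibitor related to Sprouty, overlapped, at log2 fold change 1.20 (standard error 0.36 and adjusted p = 0.127). The unadjusted p was 0.0598 for Spry2 without KPYYF 4449, and 0.0628 for Etv1 and 0.0962 for Spred1 without KPYYF 4938, in edgeR's quasi-likelihood test. The lowest value was that of Dusp5, a phosphatase of Erk in the nucleus, -0.42 (adjusted p = 0.796), and Dusp6, the cytoplasmic Erk phosphatase, was at 0.11 (adjusted p = 0.927). These genes also answer to other inputs of the MAP kinase cascade.

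The 6 splicing factors known to act on receptor exons had a median of -0.11. Esrp2, which promotes the epithelial splice form of Fgfr2, was at 34.4, 12.7, 10.5, 16.3, 20.8 and 8.31 CPM in KPF 4269, 4435, 4504h, 4504s, 4515 and 4601, and at 3.09, 0.437 and 0.658 CPM in KPYYF 4449, 4891 and 4938. The groups did not overlap, and KPYYF 4449 was again the highest of its group. The log2 fold change came to -3.62 (standard error 0.87, adjusted p = 0.0643). Its paralog Esrp1 overlapped, with 1 count in KPF 4269 and 31.7 CPM in KPYYF 4449, at a log2 fold change of -1.12 (adjusted p = 0.729). The highest value of the list was that of Rbfox2, 1.00 (adjusted p = 0.178).

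**Figure D5:**
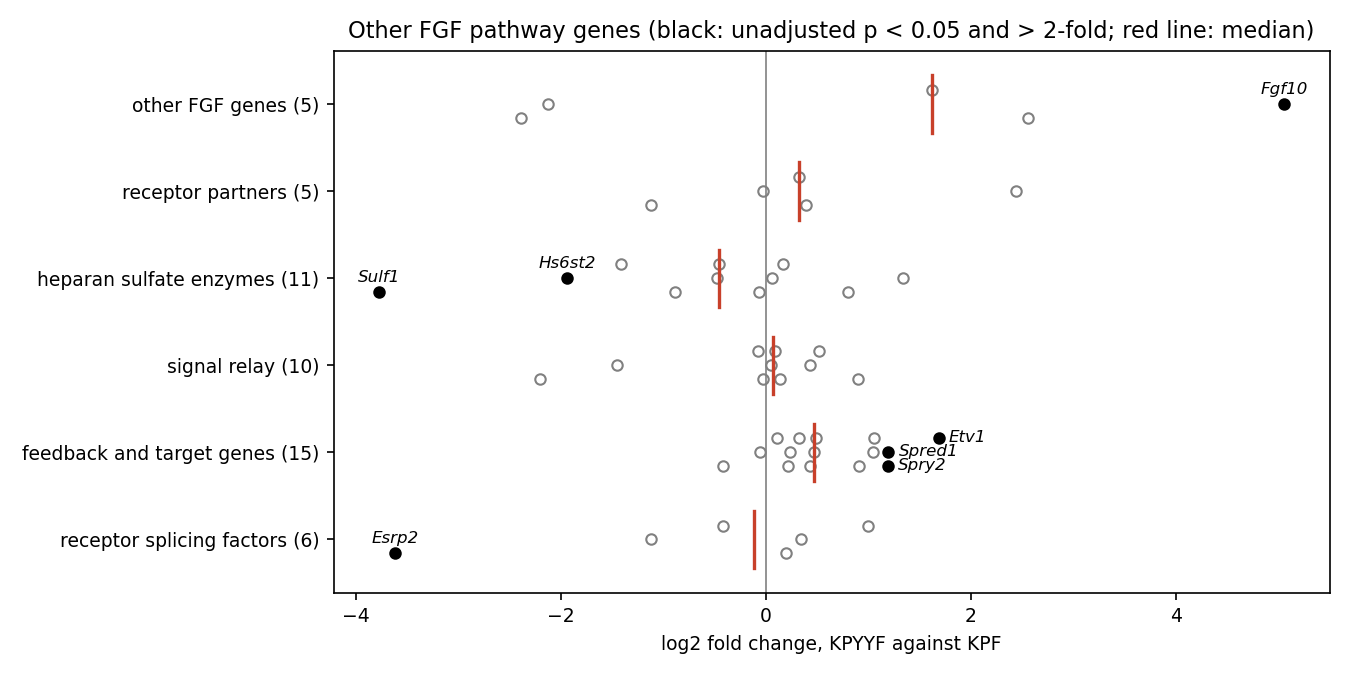
Each circle is the log2 fold change of KPYYF against KPF cells for 1 tested gene of the 6 pathway lists, with the number of tested genes in brackets, black where the rule of the methods was met, and a red line at the list's median. The feedback and target genes lie mostly to the right, with a median of 0.47, and the lowest values are those of Sulf1 and Esrp2.

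The genes whose log2 CPM was most like that of Fgfr2 over the 9 libraries, among 8901 genes with a mean of at least 10 CPM, were Slc22a18 (Pearson r = 0.977), S100a13 (0.967) and Tox3 (0.963). For Fgfr1 they were Plk1, a kinase of mitosis (0.964), Pdgfra (0.959) and Cenpw, a centromere protein (0.949). These correlations are descriptions over 9 libraries in 2 groups, and the difference between the groups enters each of them. Within the 6 KPF libraries the values were 0.758, 0.849 and 0.686 for the partners of Fgfr2 and 0.965, 0.906 and 0.844 for those of Fgfr1. Slc22a18 and Tox3 were lower in KPYYF cells with an adjusted p of 0.0176 each, and S100a13, Plk1, Pdgfra and Cenpw had adjusted p values of 0.0535 to 0.105.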

How the data were processed

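RNA of sorted PDAC cells was measured in 9 libraries of the Lexogen QuantSeq 3' Fwd kit. The authors deposited raw read counts per Ensembl gene, 1 file per library, without normalization. The submitters' processing notes name STAR, HTSeq and mm10. Versions, annotation release and strand setting are not given in the sources used here. The study's methods describe a BeadChip hybridization, a filter on a sum of 100 reads and DESeq2, and the files hold counts. Depth was 8116539 to 9635514 reads on genes per library, and lines that name no gene were left out. They took most of the reads of each file, 43.8 to 53.4% of them without a unique alignment.

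Of 47643 genes, 47224 were matched to a symbol through GENCODE. The 14105 genes whose counts summed to 100 or more were compared, KPYYF against KPF, with edgeR 4.0.16 (TMM, robust quasi-likelihood fit, no covariates) in R 4.3.3, and p-values were adjusted by Benjamini-Hochberg over all of them. All tests are two-sided. TMM factors were 0.833 to 1.08. Standard errors were taken as the log2 fold change over the square root of F. Exact permutation tests used log2 CPM with a prior count of 2 over 84 splits. Gene positions and promoters are from RefSeq (GRCm38.p6, the assembly of mm10). Promoters of Fgfr1 and Fgf1 are not shown. The scripts were tested on simulated data.

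Alternatives were DESeq2 1.42.0, RLE and upper quartile factors, no filter, filterByExpr, voom of limma 3.58.1 with sample weights, KPF 4504h and 4504s summed, libraries with at least 1000 Xist reads, and each library left out. No 2 libraries agreed within sampling noise. The genes and lists were chosen with earlier results of these data known. All 10 genes are named. Of each pathway list, genes with an adjusted p under 0.05 or an unadjusted p under 0.05 with more than 2-fold change are named, up to 6, with its highest and lowest value. Cdh1, Krt18, Pdgfra, Dpt, Acta2, Rgs5, Col1a2, Lum, Kdr, Vwf, Ins1, Gcg, Sox10, Gfra3, Dusp6, Esrp1 and Nudt6 were named after their values were seen. One shared allele of the mice is not reported here.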

Additional observations from a re-analysis of the deposited data

Results flagged for a closer look

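In 3 of 11 groups of 6 libraries tested by Dixon's criterion, 1 KPF library stood apart from the other 5. Chance gives about 1 in 20 for normally distributed values. The CPM values used here are skewed where counts are low or 0, so the chance rate for them is not known. Fgf2 was at 26.2 CPM in KPF 4435, where the median of the KPF libraries was 9.44 CPM, with a gap of 0.655 of the range against a critical value of 0.625. Fgf7 was at 3.18 CPM in KPF 4435, from 31 counts, where the median was 0.513 CPM (gap 0.713). Fgfbp1 was at 8.19 CPM in KPF 4515, from 74 counts, where the median was 0.510 CPM (gap 0.637). None of these genes had an adjusted p under 0.05 in edgeR's quasi-likelihood test or in any alternative.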

How the results depend on the processing

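The direction of Fgfr1, Fgfr2, Fgfr3, Fgfr4, Fgfrl1, Fgf1 and Fgfbp1 held in every alternative that gave a value, and Fgf2 turned to -0.26 among libraries with at least 1000 Xist reads and to -0.093 without KPYYF 4938 (-0.093 to 0.86 with each library left out). The adjusted p of Fgfr1 was under 0.05 in 9 of 17 alternatives and that of Fgfr2 in 10 of 17. Members with an adjusted p under 0.05 numbered 4 with DESeq2, 1 with limma-voom, 0 among libraries with at least 1000 Xist reads and 0 to 3 with each library left out. Members that met the rule of the methods numbered 6 with DESeq2 and 3 to 4 with each library left out. Pathway genes with an adjusted p under 0.05 numbered 4 with DESeq2, 1 without a filter and 0 to 5 with each library left out, and those that met the rule of the methods 12 without a filter and 7 to 11. Of all genes, those higher in KPYYF cells numbered 43, against 269 with DESeq2, 88 without a filter, 25 with KPF 4504h and 4504s summed, 6 among libraries with at least 1000 Xist reads and 6 to 75 with each library left out. Those lower numbered 112, against 928 with DESeq2, 219 without a filter, 39 with limma-voom, 31 among libraries with at least 1000 Xist reads and 13 to 198 with each library left out. The cause of these differences was not tested, beyond that some alternatives hold fewer samples or other genes. No paired analysis was possible because the libraries of the groups come from different mice and the labels give no numbers that pair them. Counts of 0 to 3 per library, as for Fgfr2 in KPYYF cells, leave the size of a fold change poorly known.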
